A study of Mus musculus with 76 samples.

Results

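Right ventricular (RV) tissue from male C57Bl/6J mice collected at 530 d of age was compared between 5 mice that had received Western diet (WD, libraries M11 to M15) and 5 that had stayed on normal diet (ND, libraries M6 to M10). These 10 libraries, of 76 in the series, were chosen by the sex, diet and sham field in their labels and by the collection age in the study's sample table. All 10 mice were sham-treated and had a dose of 0 cGy, and no irradiated mouse entered the comparison. By the study's methods and diet table WD, rich in milk fat and sucrose with added cholesterol, was given for a limited time in adult life and had ended before collection. The comparison asks which RV transcripts differed after WD had ended, in males of the younger collection age.

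Between 12945124 (M14) and 19058680 (M9) reads were counted on genes in each library. On ND the totals were 18988124 in M6, 18495282 in M7, 16519794 in M8, 19058680 in M9 and 14987257 in M10. On WD they were 18212795 in M11, 16878004 in M12, 16457299 in M13, 12945124 in M14 and 15547955 in M15. The WD mean was lower by 1601590 reads (difference -1601590, exact permutation test, two-sided, p = 0.222). RNA integrity numbers (RIN) were 5.4, 6.7, 4.2, 4.4 and 6 in M6 to M10 and 3.9, 5, 5.6, 5.3 and 5.7 in M11 to M15, and the groups overlapped (difference of means -0.24, exact permutation test, two-sided, p = 0.690). All 10 libraries carried the transcripts of males. The Y-linked gene Ddx3y was at 38.4 to 46.4 CPM (counts per unit of library size, which is the library's kept counts times its TMM factor), and Xist was at 0 to 0.121 CPM. The 6 genes listed as markers of ventricular cardiomyocytes, led by Myh6, summed to between 38502.5 and 51557.5 CPM, which fits heart muscle. This sum was not used to tell ventricle from atrium.

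Libraries M12 to M15 had almost the same counts although the labels list them as 4 mice. For a pair of libraries, the squared difference of each gene's counts was divided by the difference that counting error alone gives, and this chi-square was averaged over genes. It was 1.72 to 2.48 in the 6 pairs among M12 to M15, where counting error alone gives a value near 1. Between M11 and each of these 4 it was 62.0 to 70.7, and among the 10 ND pairs 15.98 to 77.5. Pairs of a WD and an ND library spanned 8.59 (M6 with M14) to 83.7 (M6 with M11), so M12 to M15 were nearer to M6 and M10 than to M11. The WD group thus held M11 and a nearly uniform block of 4 libraries, and the tests below treat that block as 4 mice unless stated. Whether these libraries came from 4 mice, as labelled, or from 1 RNA or library is not known. If they were not 4 mice, n = 5 overstates the WD group, and the standard errors and p-values from the 10 libraries, DESeq2's calls included, are too small. Counts over all genes, most list counts and the leading genes are therefore also given with the counts of M12 to M15 summed into 1 column, which leaves 2 WD columns against 5 ND libraries. With the mean of M12 to M15 taken as 1 value, the RIN difference was -0.69 (exact permutation test, p = 0.476) and the difference in total counts -774882 (exact permutation test, p = 0.571).

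**Figure D1:**
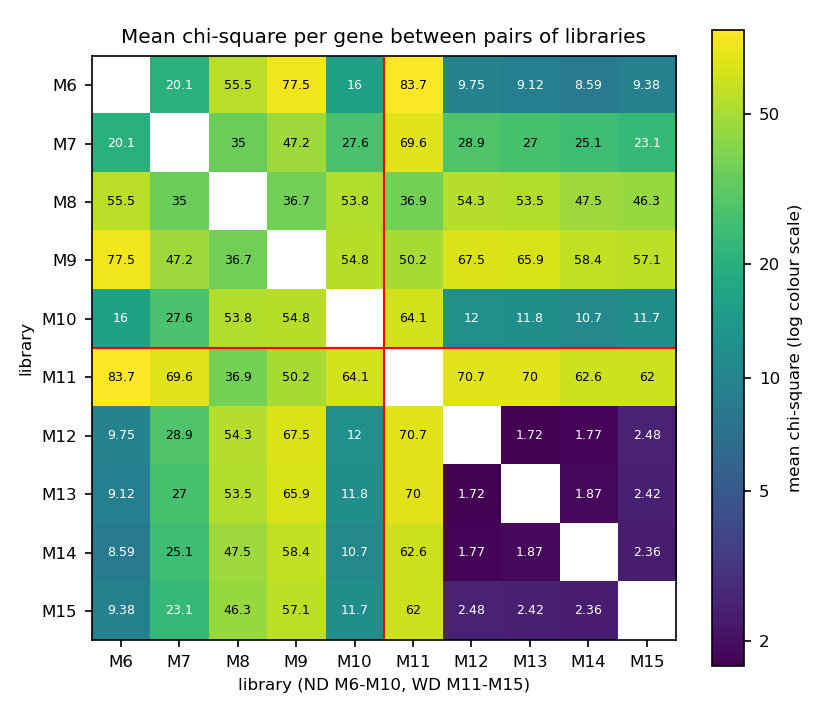
Mean chi-square per gene (colour, log scale, value in each cell) for each pair of the 10 libraries, with red lines between the diets. The 6 pairs among M12 to M15 are at 1.72 to 2.48, and all other pairs are at 8.59 or more.

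Other libraries stood apart as well. M11 had the lowest RIN and the highest summed levels of markers of blood and immune cells, with 1738 CPM for red blood cells (95.7 to 882 in the other 9 libraries), 1425 for macrophages (525 to 853), 1289 for antigen-presenting cells (316 to 516) and 106 for lymphocytes (20.3 to 28.7). Markers of atrial cardiomyocytes, which tissue next to the ventricle can bring in, summed to 2392 CPM in M8 and to 129 and 114 in M9 and M10, with 725 to 1361 in the rest. M9 and M10 also had the most Acta1, a skeletal actin that is re-expressed in stressed myocardium, at 1489 and 812 CPM against 124 to 407 in the other 8. The fits with RIN or atrial markers as covariate and those without single libraries stand with the alternatives, and the cause of these differences was not tested.

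The RV wall is built of cardiomyocytes, a dense bed of capillaries and a collagen matrix, in which fibrillar collagens bear load and basement membrane collagens surround capillaries and myocytes. Heart cells also run a circadian clock, in which CLOCK and BMAL1 bind E-boxes and drive the Per and Cry repressors, while DBP, TEF and HLF act on D-boxes of output genes. Insulin and glucocorticoid signalling act on the same cells and set their use of glucose and fatty acids.

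At 530 d, WD libraries had lower levels of some collagen and endothelial genes, led by Col5a3 (log2 fold change -1.03, standard error 0.16, n = 5 per group), and higher levels of Irs2 (0.76, standard error 0.13), of the clock genes Wee1, Per1 and Hlf, and of mt-Nd2 and mt-Cytb, which mitochondrial DNA encodes. DESeq2 placed 47 of 10350 genes past an adjusted p of 0.05. Of these, 17 were higher on WD (0.164% of the genes) and 30 were lower (0.290%). edgeR's quasi-likelihood test, the main test, placed 0 of 10995 genes past the same threshold (0%, lowest adjusted p = 0.252). It gave 774 genes at an unadjusted p under 0.05, 307 higher (2.79%) and 467 lower (4.25%). All 5 WD libraries were above all 5 ND libraries for 79 genes (0.719%) and below them for 125 (1.14%).

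With M12 to M15 summed, edgeR and DESeq2 both placed 0 genes past the threshold, with lowest adjusted p of 1 and 0.722. At an unadjusted p under 0.05 there were then 333 genes with edgeR, 170 higher (1.55%) and 163 lower (1.48%), and 369 with DESeq2. For the 47 genes, M11, the WD library outside the block of 4, was set against the ND libraries. M11 was below the ND mean for 30 of the 30 lower genes and below every ND library for 28, and it was above the ND mean for 17 of the 17 higher genes and above every ND library for 14. These genes were selected with M11 in the test, so its direction is not independent of the selection. It cannot show whether the differences would hold without the block of 4 libraries. In the summed form, which reuses the counts that selected these genes, 27 of the 30 and 14 of the 17 had an unadjusted p under 0.05. DESeq2's count changed with single libraries, to 148 genes without M11, 106 without M6 and 90 without M9, and to 24 without M8, 9 without M7, 2 without M12 and 4 without M13, M14 or M15. Without M9 and M10 together, a choice made after seeing the data, it was 133. edgeR gave 4 genes without M11 (Trp53i11, Tspan18, Rhobtb1 and Mmp14) and 1 without M9 (Col5a3).

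Of the named genes, 33 passed with DESeq2. Over 24 alternatives each of these kept its direction, and its adjusted p ran from a lowest value of 4.0e-05 (Col5a3) to 0.0495 (Per1) up to 1 with M12 to M15 summed. Genes given in the text beyond the rule for named genes are members of the lists or genes past DESeq2, and they were chosen after their values were seen. The lists too were chosen with earlier results of these data known. Their counts, set beside the shares of all genes, therefore describe these libraries and are no test of a list.

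**Figure D2:**
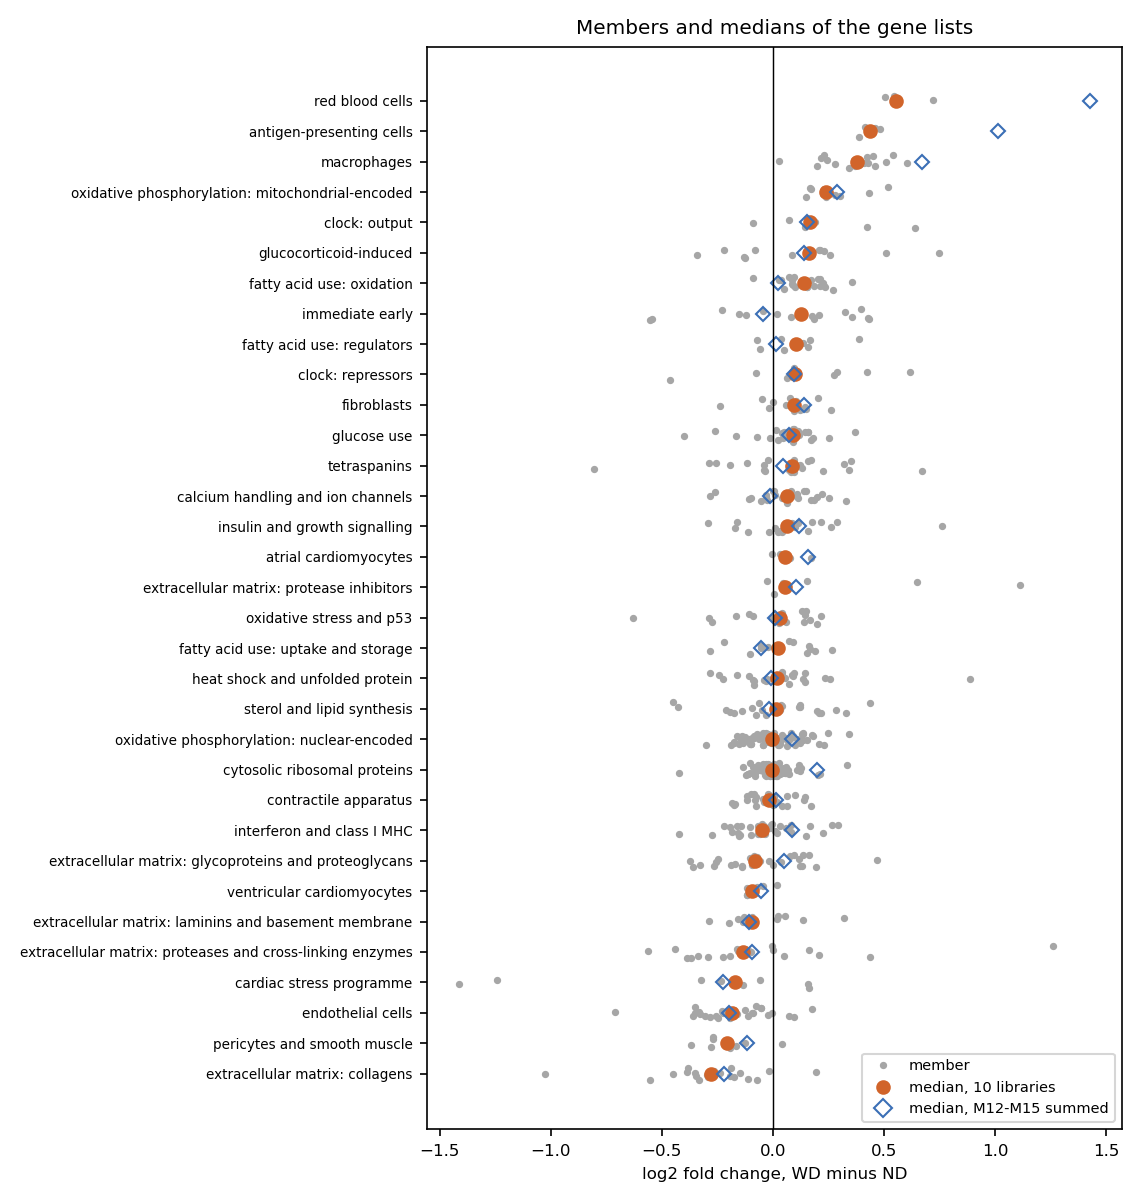
Log2 fold change, WD minus ND, for the members of the gene lists shown (grey points, edgeR), the median over the members (orange) and the median with M12 to M15 summed (blue diamonds). Collagens have the lowest median (-0.28), and the blood and immune lists at the top move further to the right when M12 to M15 are summed.

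Most collagen genes had negative fold changes, and 2 of them (Col5a3 and Col15a1) passed with DESeq2. Of the 25 listed, 20 could be tested, and 19 of these had a negative log2 fold change, with a median of -0.28 (-0.22 with M12 to M15 summed) against 0.00 over all genes tested. By an unadjusted p under 0.05, 8 were lower and 0 higher, where 4.25% of all genes were lower. With M12 to M15 summed, 4 were lower, where 1.48% of all genes were. Col5a3 (ENSMUSG00000004098, chromosome 9, 20681337 to 20726418 on GRCm39) encodes the alpha3 chain of type V collagen. It was at 36.8, 37.7, 41.2, 19.6 and 33.2 CPM in M6 to M10 and at 18.2, 16.3, 14.9, 16.5 and 16.7 CPM in M11 to M15. All 5 WD libraries, M11 included, lay below the lowest ND library, M9, which was itself well under the other 4. Its log2 fold change was -1.03 (standard error 0.16, edgeR adjusted p = 0.252) and Col5a3 passed with DESeq2 (adjusted p = 4.0e-05). With M12 to M15 summed it was -0.98 (standard error 0.25, edgeR adjusted p = 1.00). Col5a3 passed with edgeR without M9 (1 gene), with the atrial markers as covariate and without a filter on counts.

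Col15a1 (ENSMUSG00000028339, chromosome 4, 47207582 to 47313179) encodes a collagen of the basement membrane zone of capillaries and muscle. It had 78.9, 81.9, 86.0, 62.8 and 104 CPM in M6 to M10 and 49.4, 57.0, 63.6, 55.6 and 56.6 CPM in M11 to M15. M9 again was the lowest ND library, and its level lay within the WD range, so the groups overlapped by 1 library on each side. The fold change was -0.55 on the log2 scale (standard error 0.12, edgeR adjusted p = 0.327, past DESeq2 with adjusted p = 0.0156) and -0.62 with M12 to M15 summed. The major basement membrane chains Col4a1 (-0.35, standard error 0.10) and Col4a2 (-0.38, standard error 0.11) were lower in all 5 WD libraries than in any ND library, with edgeR adjusted p of 0.423 and 0.386. The type VI chains Col6a1 (-0.33), Col6a2 (-0.45) and Col6a3 (-0.39) were at an unadjusted p under 0.05 with overlapping groups. The main fibrillar chains differed less, with Col1a1 at -0.24, Col1a2 at -0.02 and Col3a1 at -0.19, and their groups overlapped.

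Among enzymes that process the matrix, the lysyl oxidase Loxl2 (ENSMUSG00000034205), which cross-links collagen, had 9.89, 10.4, 11.5, 10.4 and 12.6 CPM on ND and 6.85, 7.24, 7.04, 8.55 and 7.52 CPM on WD. The groups did not overlap, and M11 was the lowest library. Its log2 fold change was -0.56 (standard error 0.11, edgeR adjusted p = 0.327, DESeq2 adjusted p = 0.00825) and -0.61 with M12 to M15 summed. Of 21 proteases and cross-linking enzymes tested, 16 had a negative fold change (median -0.14, -0.09 with M12 to M15 summed, -0.21 without M11). At an unadjusted p under 0.05, 2 were lower (4.25% of all genes). In the summed form 1 was lower and 2 were higher (1.48% and 1.55% of all genes). Medians of the other matrix genes were -0.09 for 11 laminins and basement membrane genes (-0.11 summed, -0.04 without M11), -0.08 for 30 glycoproteins and proteoglycans (0.05 summed, -0.21 without M11) and 0.05 for 7 protease inhibitors (0.10 summed, -0.00256 without M11). Mmp14, a membrane-bound collagenase activator, was high in M11 (33.6 CPM) and at 12.9 to 15.7 CPM in M12 to M15, with 21.9 to 30.97 on ND, and it passed with edgeR without M11.

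M11 was also far above all other libraries for 2 genes of matrix turnover. The stromelysin Mmp3 was at 63.9 CPM in M11 and at 3.95 to 10.6 in the other 9 libraries, and the protease inhibitor Timp1 at 32.9 CPM against 2.54 to 8.94. Their log2 fold changes, 1.26 and 1.11, were those of 1 library, and both genes were named here after their values were seen.

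**Figure D3:**
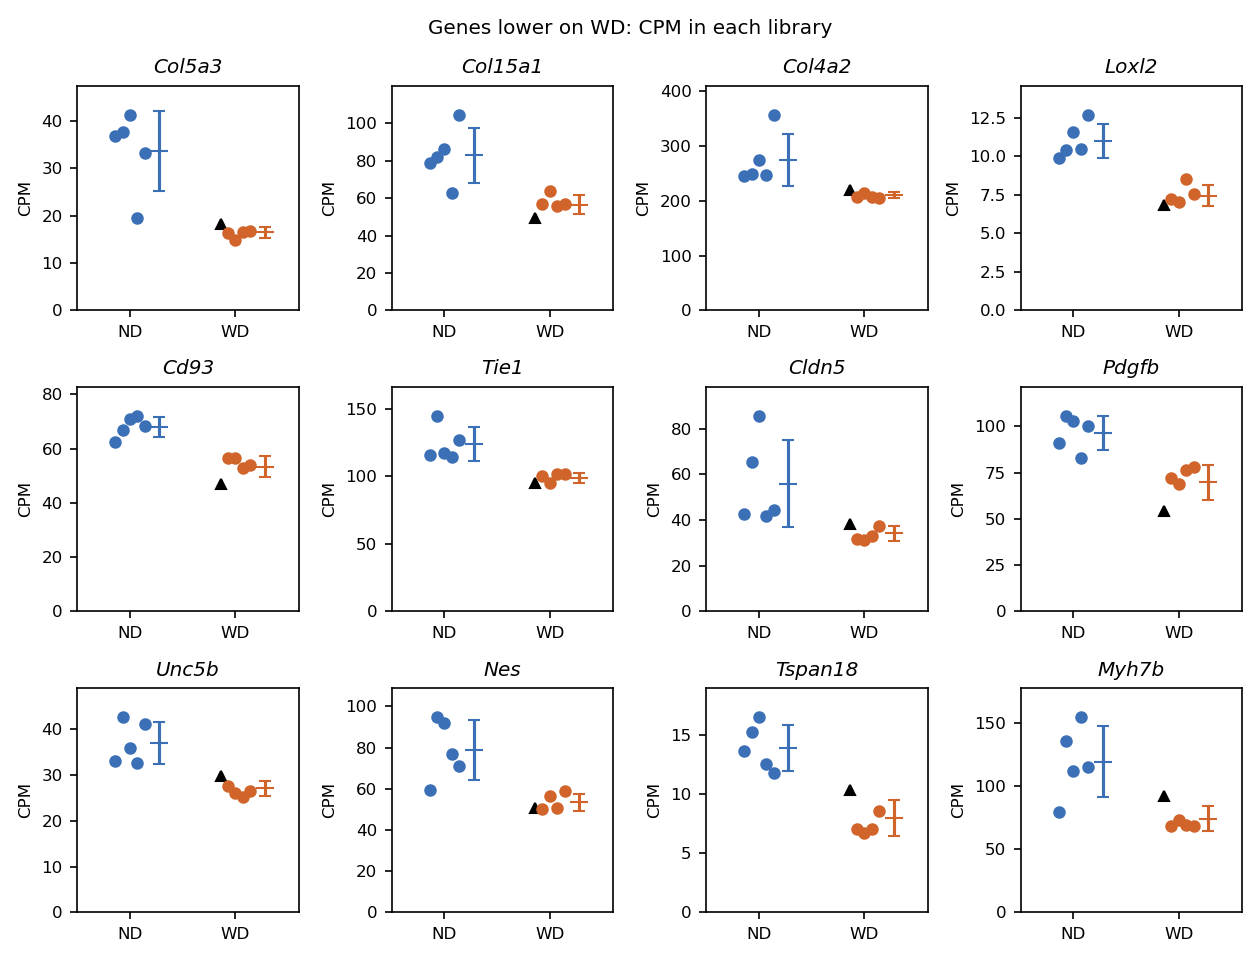
CPM in each library for 12 genes that were lower on WD, with ND in blue, M11 as a black triangle, M12 to M15 in orange, and bars for the mean and SD (n = 5 per group). In the Cd93 panel all WD libraries lie at 46.97 to 56.7 CPM and all ND libraries at 62.4 to 71.9 CPM.

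Most markers of endothelium also had negative fold changes. All 28 endothelial markers could be tested. Of these, 25 had a negative fold change (median -0.18, -0.20 with M12 to M15 summed), 11 were lower at an unadjusted p under 0.05 (4.25% of all genes) and 0 higher, 7 were lower in the summed form (1.48% of all genes), and 6 were lower in every WD library than in every ND library, where 1.14% of all genes were. Cd93 and Tie1 were the 2 of them that passed with DESeq2. Summed over the 28 markers, the level was 2388, 2642, 2955, 2629 and 2576 CPM in M6 to M10 and 2419, 2285, 2269, 2302 and 2299 CPM in M11 to M15. Only M6 on ND fell within the WD range, and the ratio of the means was 0.878. The most abundant marker was Eng, a TGF-beta co-receptor (359.6 to 558 CPM, log2 fold change -0.23, unadjusted p = 0.0570, -0.13 in the summed form and -0.14 without M8), and no marker of the list was at 0. In bulk tissue, fewer cells of a type and less RNA per cell cannot be told apart.

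Cd93 (ENSMUSG00000027435, chromosome 2, 148270798 to 148285546) encodes a C-type lectin receptor of endothelium that binds matrix proteins and takes part in angiogenesis. It had 62.4, 66.7, 70.9, 71.9 and 68.2 CPM on ND and 46.97, 56.4, 56.7, 52.9 and 53.8 CPM on WD. The groups were fully apart, with M11 lowest. The log2 fold change was -0.35 (standard error 0.08, edgeR adjusted p = 0.327, DESeq2 adjusted p = 0.0156), and -0.42 with M12 to M15 summed. Tie1, an orphan receptor that modulates angiopoietin signalling through Tek, had 116, 144, 117, 115 and 127 CPM on ND and 94.7, 100.3, 94.9, 102 and 102 CPM on WD, again without overlap (-0.33, standard error 0.08, edgeR adjusted p = 0.341, DESeq2 adjusted p = 0.0383, and -0.35 with M12 to M15 summed). Tek itself was at -0.06, and its groups overlapped.

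The tight junction gene Cldn5 had 42.9, 65.6, 85.5, 41.7 and 44.6 CPM on ND and 38.2, 31.7, 31.3, 32.9 and 37.3 CPM on WD. Its ND libraries fell into 2 high (M7 and M8) and 3 lower ones, all above the WD libraries. Cldn5 was at -0.71 on the log2 scale (standard error 0.18, edgeR adjusted p = 0.346, DESeq2 adjusted p = 0.0572) and at -0.66 with M12 to M15 summed. Sox18, a transcription factor of vessel development, was at -0.33 (edgeR adjusted p = 0.423). The VEGF receptors Kdr (-0.35) and Flt1 (-0.19), the sialomucin Podxl (-0.22) and the guidance receptor Robo4 (-0.31) had an unadjusted p under 0.05. For Kdr the lowest value was M11 (55.6 CPM), with 99.7 to 104 in M12 to M15 and 109 to 133 on ND. Broad markers such as Pecam1 (-0.08), Cdh5 (-0.17) and Ptprb (-0.02) differed by less than these.

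Further genes past DESeq2 belonged to none of the lists. Pdgfb, the endothelial ligand that recruits pericytes, had 91.1, 105, 103, 82.9 and 100.0 CPM on ND and 54.1, 72.0, 68.6, 76.1 and 77.8 CPM on WD. No WD library reached the lowest ND value, and M11 was the furthest away. The fold change was -0.47 on the log2 scale (standard error 0.11, edgeR adjusted p = 0.330, DESeq2 adjusted p = 0.0232) and -0.60 with M12 to M15 summed. The netrin receptor Unc5b (-0.45), the forkhead factor Foxs1 (-0.88), which is expressed in pericytes, and the intermediate filament gene Nes (-0.56) passed with DESeq2 (adjusted p = 0.0156, 0.0202 and 0.0156) and were without overlap. Foxs1 was at 4.03 to 6.38 CPM on ND and 1.62 to 3.37 on WD. Among genes past DESeq2 outside the rule for named genes, and named after their values were seen, the semaphorin receptor Plxnd1 had 124, 143, 152, 131 and 149 CPM on ND and 106, 104, 105, 106 and 107 on WD (log2 fold change -0.41, DESeq2 adjusted p = 7.1e-04). Arhgef15, a guanine nucleotide exchange factor of endothelium, had 62.8 to 84.4 CPM on ND and 50.8 to 61.5 on WD (-0.42, DESeq2 adjusted p = 0.0222). Markers of pericytes and smooth muscle had a median of -0.21, with 9 of 10 negative and 2 lower at an unadjusted p under 0.05, where 4.25% of all genes were. With M12 to M15 summed the median was -0.12 and 0 were lower, where 1.48% of all genes were. The summed level of these markers was 932 to 1230 CPM on ND and 917 to 1069.7 on WD. Whether levels of vascular genes moved with the number of vascular cells was not tested.

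Clock genes had fold changes in both directions. The labels and the study's methods do not give the time of day at which each mouse was killed, so whether it was balanced between the diets is not known. Of the 21 listed, 19 could be tested, 15 had a positive fold change (median 0.10), and 6 were higher and 2 lower at an unadjusted p under 0.05, where 2.79% and 4.25% of all genes were. These counts were 3 and 1 with M12 to M15 summed, where 1.55% and 1.48% of all genes were. Per1 (ENSMUSG00000020893), a repressor of CLOCK and BMAL1, had 98.9, 95.8, 87.8, 93.3 and 82.3 CPM on ND and 124, 107, 110.2, 108 and 109.8 CPM on WD. All WD libraries were above all ND libraries, and M11 was the highest. The log2 fold change was 0.29 (standard error 0.08, edgeR adjusted p = 0.370, DESeq2 adjusted p = 0.0495) and 0.34 with M12 to M15 summed. Per2 had 8.93, 11.2, 7.82, 13.2 and 8.39 CPM on ND and 10.5, 15.98, 15.6, 17.96 and 16.2 CPM on WD. For this gene M11 lay within the ND range while M12 to M15 lay above it (0.62, standard error 0.17, edgeR adjusted p = 0.358, DESeq2 adjusted p = 0.0767, and 0.45 with M12 to M15 summed). Cry1 (0.42, unadjusted p = 0.0173) and Per3 (0.27, unadjusted p = 0.0284) overlapped more, M9 being as high as some of M12 to M15.

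The activator Clock (ENSMUSG00000029238) was lower, at 16.99, 17.7, 20.8, 17.4 and 17.1 CPM on ND and 13.1, 14.2, 15.6, 12.4 and 12.6 CPM on WD. The groups did not overlap, with M8 high among the ND libraries. Its log2 fold change of -0.41 (standard error 0.10) had an edgeR adjusted p of 0.341 and a DESeq2 adjusted p of 0.0526, and it was -0.42 with M12 to M15 summed. Bmal1 had too few counts to be tested, with 2.59, 3.62, 4.44, 0.919 and 1.598 CPM on ND and 0.848, 1.51, 1.48, 0.706 and 0.389 on WD. All ND libraries except M9 were above the WD libraries, M10 by little. Nr1d1, which represses Bmal1, was lower (-0.46, edgeR adjusted p = 0.541), with M9 at 86.3 CPM below all the WD libraries (92.4 to 119) and the other ND libraries at 120.4 to 175.

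Among output genes, the cell cycle kinase Wee1, which the clock controls, had 11.2, 10.5, 7.70, 9.89 and 11.98 CPM on ND and 12.4, 17.5, 15.9, 17.8 and 16.5 CPM on WD. It was higher in every WD library, M11 being just above the highest ND library. Wee1 was at 0.64 on the log2 scale (standard error 0.13, edgeR adjusted p = 0.327, DESeq2 adjusted p = 0.00825) and 0.52 with M12 to M15 summed. Hlf had 28.6, 23.3, 19.8, 21.4 and 24.4 CPM on ND and 27.8, 32.7, 30.8, 32.7 and 33.8 CPM on WD. M6 exceeded M11, so the groups overlapped by that pair (0.42, standard error 0.10, DESeq2 adjusted p = 0.0369, and 0.36 with M12 to M15 summed). Dbp (0.19) and Tef (0.14), the other PAR bZIP genes, overlapped between the diets and were not past an unadjusted p of 0.05.

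**Figure D4:**
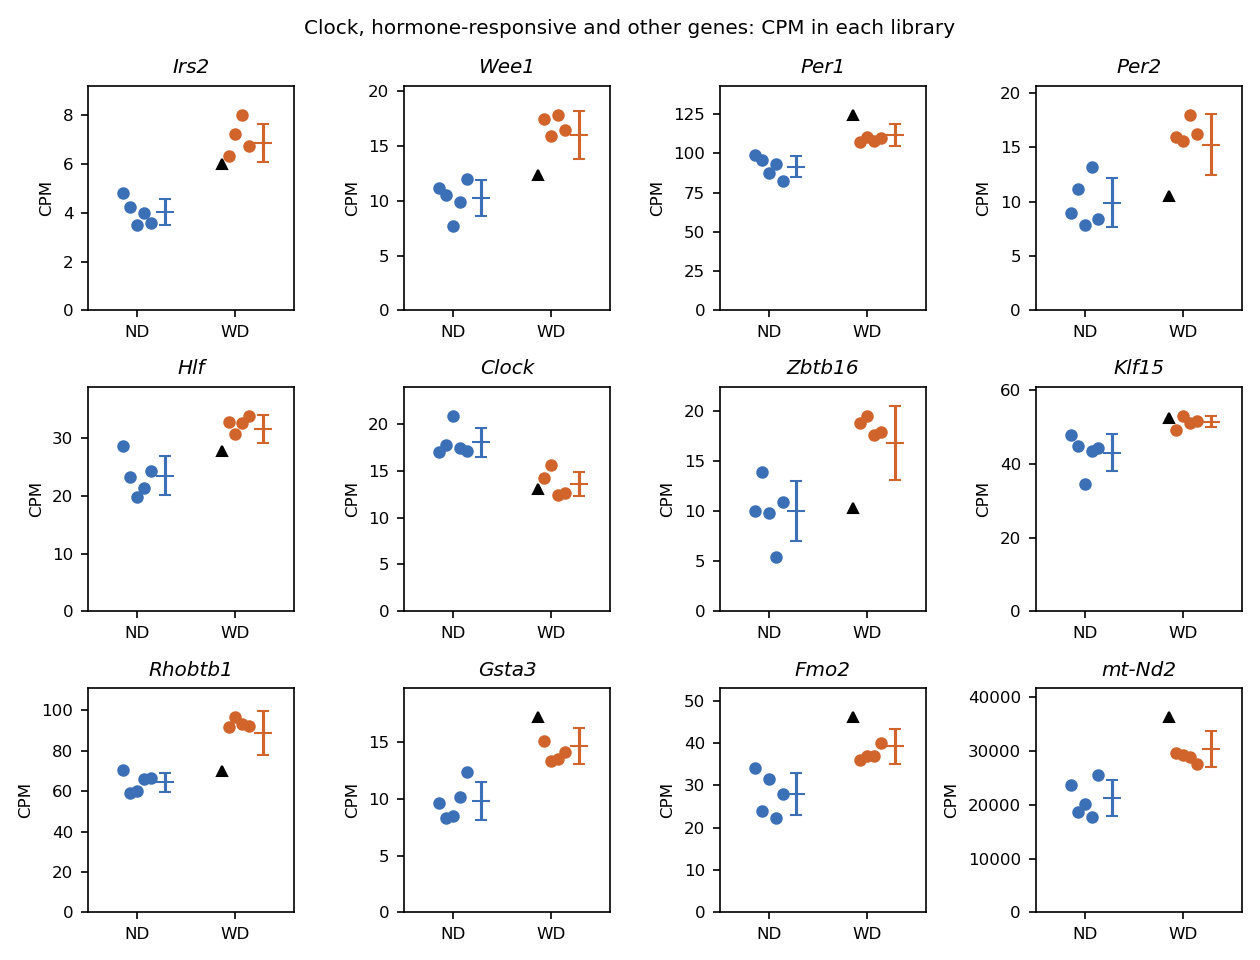
CPM in each library for 12 clock, hormone-responsive and other genes, with ND in blue, M11 as a black triangle, M12 to M15 in orange, and bars for the mean and SD (n = 5 per group). Per1 and Wee1 are higher in all WD libraries and Clock is lower in all of them.

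The promoters of 3 clock repressors that were higher on WD are printed because these genes, higher at an unadjusted p under 0.05, carry motifs that clock factors bind. The windows run from 250 bases before to 50 bases after the start of transcription and come from RefSeq on GRCm38.p6. Windows were held for 16 of the 21 clock genes. The E-box CACGTG, which reads the same on both strands, was found in 2349 of 32851 windows (7.15%), in 2187 of 27025 genes (8.09%) and in 5 of the 16 clock genes (Per1, Cry1, Ciart, Bhlhe41 and Tef). The D-box TTATGTAA, searched on both strands, was found in 308 windows (0.938%), in 299 genes (1.11%) and in 1 clock gene (Per3). Per1 had a second window, which held no E-box. A match describes letters only. Capitals mark the E-box in Per1 (chr11:69098699-69098998, plus strand, 166 bases before the start) and Cry1 (chr10:85185005-85185304, minus strand, 60 bases before the start), and the 2 D-boxes in Per3 (chr4:151044616-151044915, minus strand, 205 and 158 bases before the start), each written 5′ to 3′ on the strand of the gene.
Per1: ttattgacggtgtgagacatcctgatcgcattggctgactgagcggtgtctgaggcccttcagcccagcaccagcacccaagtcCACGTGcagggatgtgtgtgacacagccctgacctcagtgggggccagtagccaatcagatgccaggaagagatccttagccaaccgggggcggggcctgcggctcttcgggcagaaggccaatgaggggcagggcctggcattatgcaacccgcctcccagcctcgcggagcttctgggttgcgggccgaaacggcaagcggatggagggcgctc
Cry1: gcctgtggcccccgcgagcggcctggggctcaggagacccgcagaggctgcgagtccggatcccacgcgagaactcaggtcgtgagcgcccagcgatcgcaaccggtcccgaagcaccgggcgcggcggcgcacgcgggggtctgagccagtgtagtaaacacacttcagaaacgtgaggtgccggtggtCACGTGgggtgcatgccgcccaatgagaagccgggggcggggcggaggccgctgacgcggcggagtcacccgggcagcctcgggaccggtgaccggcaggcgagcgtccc
Per3: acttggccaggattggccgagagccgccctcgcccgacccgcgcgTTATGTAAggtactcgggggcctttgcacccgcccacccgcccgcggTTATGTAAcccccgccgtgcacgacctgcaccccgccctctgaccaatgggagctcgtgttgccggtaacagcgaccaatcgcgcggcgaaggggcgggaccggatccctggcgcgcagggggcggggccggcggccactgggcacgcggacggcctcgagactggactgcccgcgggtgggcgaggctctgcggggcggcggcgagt

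Irs2 (ENSMUSG00000038894, chromosome 8, 11034681 to 11059499), an adaptor that carries the signal of the insulin receptor, had the largest positive change among genes past DESeq2. It was at 4.82, 4.24, 3.49, 4.00 and 3.60 CPM on ND and at 6.00, 6.33, 7.22, 8.00 and 6.74 CPM on WD. Every WD library was above every ND library. The log2 fold change was 0.76 (standard error 0.13, edgeR adjusted p = 0.252, DESeq2 adjusted p = 0.00119) and 0.69 with M12 to M15 summed (edgeR adjusted p = 1.00). Of 18 insulin and growth signalling genes tested, 13 had a positive fold change (median 0.06), and Irs2 and the ubiquitin ligase Fbxo32 (0.29, edgeR adjusted p = 0.677) were the 2 with an unadjusted p under 0.05 (2.79% of all genes higher). The summed form gave 1 (1.55%), and without M11 the median was -0.00686.

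Glucocorticoid-induced genes gave 3 of 13 tested at an unadjusted p under 0.05, all higher on WD, where 2.79% of all genes were. With M12 to M15 summed 1 of 13 was higher, where 1.55% of all genes were. Zbtb16, a transcription factor gene induced by the glucocorticoid receptor, had 10.04, 13.95, 9.83, 5.46 and 10.9 CPM on ND and 10.4, 18.9, 19.5, 17.6 and 17.9 CPM on WD. M12 to M15 were above all ND libraries and M11 was among them (0.75, standard error 0.22, edgeR adjusted p = 0.423, and 0.54 with M12 to M15 summed). Ddit4, an inhibitor of mTORC1, was at 0.51 (standard error 0.15, edgeR adjusted p = 0.430), with M11 at 43.8 CPM, M12 to M15 at 27.2 to 28.9 and ND at 18.3 to 28.5. Klf15, a cardiac regulator of metabolism, had 47.8, 44.8, 34.5, 43.4 and 44.3 CPM on ND and 52.5, 49.1, 52.9, 51.0 and 51.6 CPM on WD, without overlap (0.26, standard error 0.09, edgeR adjusted p = 0.511, and 0.27 with M12 to M15 summed). The list as a whole had a median of 0.16 (0.14 with M12 to M15 summed, 0.07 without M11), and Fkbp5 (0.21) and Tsc22d3 (0.23), its best known members, overlapped between the diets. None of these genes passed a test after adjustment.

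Among genes of sterol handling, the cholesterol carrier Stard4 (-0.43, edgeR adjusted p = 0.677) was lower, and the cholesterol exporter Abca1 (0.29, edgeR adjusted p = 0.489) and Mylip (0.44, edgeR adjusted p = 0.346), a ubiquitin ligase gene induced by LXR, were higher. All 3 had an unadjusted p under 0.05, and with M12 to M15 summed only Stard4 of these did. The 25 SREBP and LXR targets tested had a median of 0.01. Mylip had 14.8, 14.4, 10.2, 12.6 and 13.8 CPM on ND and 15.3, 17.4, 19.1, 19.8 and 17.8 CPM on WD. All WD libraries exceeded the ND libraries, M11 by the least. DESeq2 gave Mylip an adjusted p of 0.0673, and with M12 to M15 summed it was at 0.36.

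In fatty acid use, 24 of 25 oxidation genes tested had a positive fold change, and 0 of them had an unadjusted p under 0.05. Their median was 0.14, and it was 0.02 with M12 to M15 summed, 0.20 with RIN as covariate and 0.23 without M11. Library M11 and the ND library M9 were low for several of these genes. The PPAR-alpha target Pdk4, for instance, had 283, 195, 124, 47.2 and 136 CPM on ND and 57.1, 199, 197, 193 and 188 on WD, and the groups overlapped over most of their range (0.09, standard error 0.40). The triglyceride synthase Dgat2 had 449, 446, 412, 512 and 524 CPM on ND and 599, 552, 561, 555 and 548 CPM on WD (0.26, standard error 0.09, edgeR adjusted p = 0.511). Its groups were apart, with M11 the highest. Monoacylglycerol lipase, Mgll, was lower (-0.28, edgeR adjusted p = 0.587). Among glucose genes, 20 of 25 were positive (median 0.09, 0.07 in the summed form, 0.01 without M11). The phosphofructokinase genes Pfkp (-0.26) and Pfkfb2 (-0.40) were lower at an unadjusted p under 0.05 (4.25% of all genes). In the summed form 0 glucose genes were lower (1.48% of all genes). Pfkfb2 was highest in M9 (38.4 CPM, other ND libraries 17.4 to 27.2, WD 17.8 to 21.8), and without M9 it was at -0.22.

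Transcripts encoded by mitochondrial DNA had positive fold changes. Of 13 listed, 11 could be tested, and all 11 had a positive fold change. Their median was 0.24 (0.29 with M12 to M15 summed, 0.16 without M11 and 0.25 with DESeq2's size factors). By an unadjusted p under 0.05, 3 were higher, where 2.79% of all genes were. With M12 to M15 summed 1 was higher, where 1.55% of all genes were. For 83 nuclear-encoded subunits of oxidative phosphorylation the median was -0.00396 (0.09 with M12 to M15 summed, -0.11 without M11 and 0.00254 with DESeq2's size factors). Complex I subunit mt-Nd2 had 23725, 18683, 20134, 17781 and 25504 CPM on ND and 36208, 29670.0, 29240.4, 28899 and 27509 CPM on WD. All WD libraries were above the ND libraries, and M11 was the highest (0.52, standard error 0.12, edgeR adjusted p = 0.341, DESeq2 adjusted p = 0.0142, and 0.62 with M12 to M15 summed). The cytochrome b gene mt-Cytb had 46145, 38663, 44122, 40864 and 49596 CPM on ND and 52681, 53947, 53392, 53964 and 52215 CPM on WD. These groups were also apart (0.28, standard error 0.09, edgeR adjusted p = 0.511, DESeq2 adjusted p = 0.0462, and 0.27 with M12 to M15 summed). For mt-Co1, the most abundant of them, M11 had the lowest level of all (44466 CPM) and M14 the highest (77125), and the groups overlapped. Atp6-ps, a nuclear pseudogene of mt-Atp6 that shares its sequence, was at 0.42 (DESeq2 adjusted p = 0.0142), and reads cannot be assigned to 1 of the 2 with certainty. The share of all counts on mitochondrial genes was 19.4% to 23.96% on ND and 22.3% to 25.4% on WD, with M11 the lowest on WD.

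Macrophage markers had positive fold changes, and their size moved with M11. Of 22 markers, 19 could be tested and all 19 had a positive fold change, with a median of 0.38, of 0.67 with M12 to M15 summed, of 0.24 with RIN as covariate and of 0.13 without M11. At an unadjusted p under 0.05, 3 were higher (Lyz2, Ctss and Trem2, against 2.79% of all genes), and 11 in the summed form (1.55% of all genes), where M11 makes up 1 of the 2 WD columns. The summed level was 580, 576, 853, 525 and 569.7 CPM in M6 to M10 and 1425, 653, 644, 655 and 680 CPM in M11 to M15. M12 to M15 were above 4 of the ND libraries and below M8. The most abundant marker, Lyz2, had 156, 160.0, 209, 119 and 139.8 CPM on ND and 329, 184, 187, 189 and 190.1 on WD (0.46, standard error 0.18, edgeR adjusted p = 0.677). The antigen-presenting genes had a median of 0.44 (1.01 in the summed form, 0.23 with RIN as covariate), and without M11 it was -0.14. Their leading gene Cd74, the invariant chain of class II MHC, had 414 CPM in M11, 127 to 135 in M12 to M15 and 107 to 172 on ND. Haemoglobin and other red blood cell genes were at a median of 0.55 (1.43 in the summed form, 0.02 with RIN as covariate), and without M11 at -0.66. The leukocyte tetraspanin Cd53 (0.67, edgeR adjusted p = 0.549) and the amino acid stress gene Chac1 (0.89, edgeR adjusted p = 0.374) were also highest in M11, at 9.88 and 9.45 CPM. The groups overlapped for Cd53. For Chac1, M12 to M15 (4.52 to 5.64 CPM) were also above all ND libraries (2.07 to 4.38 CPM).

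**Figure D5:**
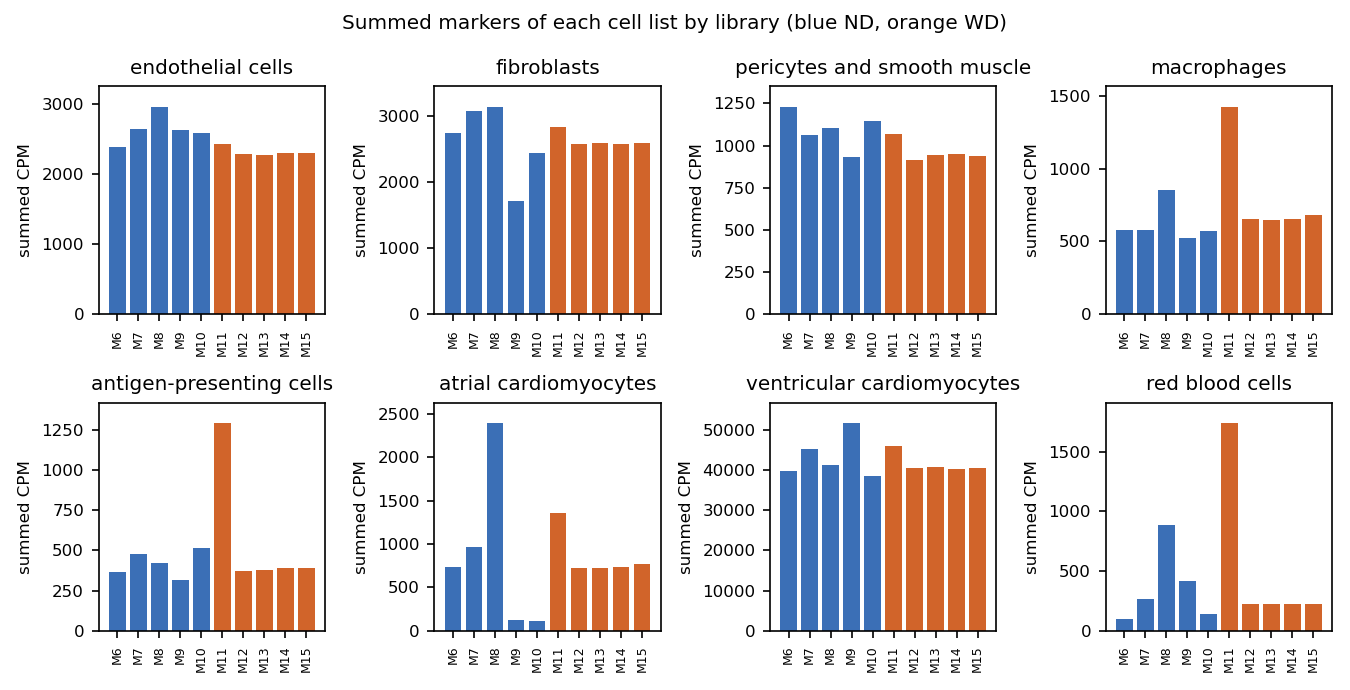
Summed CPM of the markers of 8 cell types in each library, ND in blue and WD in orange. M11 is the highest for macrophages, antigen-presenting cells and red blood cells, M8 is the highest for atrial cardiomyocytes, and M9 and M10 are the lowest for these.

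The 27 genes of sarcomere and Z-disc had a median of -0.02, and 0 had an unadjusted p under 0.05 in either direction. The same count was 0 of 27 for calcium handling and ion channels (median 0.06, -0.01 in the summed form), where 1 gene was higher with M12 to M15 summed (1.55% of all genes). In the cardiac stress programme 3 of 9 tested genes were lower at an unadjusted p under 0.05, where 4.25% of all genes were, and 0 with M12 to M15 summed (1.48% of all genes). Of these, Acta1 had 127, 273, 124, 1489 and 812 CPM on ND and 407, 167, 167, 157 and 161 on WD, and the natriuretic peptide gene Nppb 49.3, 96.5, 76.8, 568 and 126 on ND and 125, 63.8, 70.4, 67.6 and 60.5 on WD. The groups overlapped for both, and the high values were those of M9 and M10 for Acta1 and of M9 for Nppb. Their log2 fold changes of -1.41 and -1.24 turned to 0.28 and 0.06 without M9 and M10. The third gene, the calcineurin regulator Rcan1, was at 62.7 to 88.1 CPM on ND and 61.1 to 63.2 on WD (-0.23, edgeR adjusted p = 0.677), and its fold change kept its direction over the 24 alternatives (-0.29 to -0.09).

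The slow myosin Myh7b, host of a muscle microRNA and 1 of the 30 genes lower with DESeq2, had 79.8, 136, 112, 155 and 115 CPM on ND and 92.2, 68.7, 73.3, 69.4 and 68.7 CPM on WD. M6 lay below M11, so the groups overlapped by that pair. On the log2 scale Myh7b was at -0.68 (standard error 0.15, edgeR adjusted p = 0.330, DESeq2 adjusted p = 0.0202) and -0.56 with M12 to M15 summed. Its 3′ end meets that of Trpc4ap on the other strand, and Trpc4ap itself was at 0.03. Coro6 (-0.38) and Myo18b (-0.26), an actin-binding coronin and a sarcomeric myosin named after their values were seen, had no overlap between groups and DESeq2 adjusted p of 0.0291 and 0.00825.

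The tetraspanin gene Tspan18 (ENSMUSG00000027217, chromosome 2, 93031658 to 93164887) had 13.6, 15.2, 16.5, 12.5 and 11.8 CPM on ND and 10.4, 7.05, 6.73, 7.06 and 8.63 CPM on WD. All WD libraries were lower, M11 by the least (-0.81, standard error 0.14, edgeR adjusted p = 0.252, DESeq2 adjusted p = 7.1e-04, and -0.68 with M12 to M15 summed). The p53-induced gene Trp53i11 (chromosome 2, 93000672 to 93032173) was at -0.63 (standard error 0.15, DESeq2 adjusted p = 0.0427) and overlapped through M11, at 47.03 CPM against 27.9 to 31.1 in M12 to M15 and 42.7 to 61.0 on ND. These genes lie on opposite strands, and their 3′ ends, where the reads were counted, cover the same bases. Whether the counting kept the strands apart is not given, so whether Tspan18 and Trp53i11 are 2 separate observations is not known. Of 22 tetraspanins tested, 13 had a positive fold change (median 0.09, 0.04 with M12 to M15 summed, -0.00110 without M11). At an unadjusted p under 0.05, 3 were lower and 2 higher (4.25% and 2.79% of all genes). In the summed form 1 was lower and 3 were higher (1.48% and 1.55%).

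Rhobtb1 (ENSMUSG00000019944, chromosome 10, 68987045 to 69127621), which encodes an adaptor of cullin 3 ligases, had 70.6, 59.2, 60.2, 65.8 and 66.2 CPM on ND and 69.9, 91.9, 96.5, 93.0 and 92.2 CPM on WD. M12 to M15 were far above the ND range, while M11 lay within it, below M6. The log2 fold change was 0.46 (standard error 0.10, edgeR adjusted p = 0.327, DESeq2 adjusted p = 0.00825) and 0.34 with M12 to M15 summed. Rhobtb1 passed with edgeR without M11. Of the other genes past DESeq2, Gsta3 and Fmo2, enzymes of detoxification, were at 0.58 and 0.49 (adjusted p = 0.0142 and 0.0462), with Gsta3 at 8.32 to 12.4 CPM on ND and 13.3 to 17.2 on WD. Herpud1, a gene of endoplasmic reticulum protein degradation, was at 0.37 (adjusted p = 0.0156), and Setbp1 at 0.74 (adjusted p = 0.0462). The transcription factor gene Cebpb was at 0.34 (edgeR adjusted p = 0.549) with overlapping groups, and Shld1 at 0.37 (edgeR adjusted p = 0.677), its highest levels being in M11 (55.3 CPM) and M9 (41.5).

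The same contrast was set beside that in males collected at 750 d, which share no library with it. There edgeR placed 0 genes past the threshold (346 at an unadjusted p under 0.05) and DESeq2 0 (426). The diet by age interaction gave 0 genes with either tool (373 and 432 at an unadjusted p under 0.05), so no gene was shown to differ in its diet effect between the ages. Of the 47 genes past DESeq2 at 530 d, 26 (55.3%) had the same sign at 750 d, against 50.7% of all genes tested. This share was 12 of 17 (70.6%) for the higher genes, against 49.4% of all genes with a positive fold change, and 14 of 30 (46.7%) for the lower ones, against 52.0% of those with a negative one. Of the higher genes, Per1 was at 1.07 at 750 d (unadjusted p = 0.00257), Hlf at 0.74 (0.0233), Rhobtb1 at 0.53 (0.00648) and Fmo2 at 0.91 (0.00646). Per2 and Zbtb16, which are not among the 47, were at 1.42 (0.00372) and 1.36 (0.00308).

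Of the lower genes, Col15a1 was at -0.56 (unadjusted p = 0.0380) at 750 d and Col5a3 at 0.01 (0.969), and the collagens as a group had a median of -0.23. Endothelial markers had a median of 0.18 at 750 d where it was -0.18 at 530 d, and the mitochondrial-encoded genes -0.20 where it was 0.24. At 750 d RIN was 5.1, 7.3, 3.6, 3.6 and 5.7 on ND and 6.6, 3.8, 7.2, 7.5 and 6.3 on WD. The atrial marker Myl4 was there at 7888, 3264, 1570.0, 36.8 and 567 CPM on ND and at 4319, 95.4, 4.64, 4.70 and 119.8 CPM on WD. Their part in the medians at 750 d was not tested. In females at 530 d, 28 of the 47 genes had the same sign (59.6%, all genes 54.2%). By direction these were 8 of 17 higher genes (47.1%, all positive genes 53.5%) and 20 of 30 lower genes (66.7%, all negative genes 54.9%), so the direction with the larger share was not that of the 750 d males. There edgeR placed 1 gene past the threshold, Dbp, which was lower on WD (-0.78), with 684 at an unadjusted p under 0.05. Irs2 was at 1.13 in these females (unadjusted p = 0.0161), and Hlf, higher in males, at -0.59 (unadjusted p = 0.00315). The difference between the sexes was not tested here.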

How the data were processed

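RNA of right ventricular tissue was sequenced as poly-A libraries, paired-end. Per the study's methods and labels, the authors ran FastQC 0.11.9, aligned reads to mm39 (GRCm39) with STAR 2.7.8a and made raw counts per gene with HTSeq-count restricted to the last 500 bases of each gene at its 3′ end, and these counts were deposited without normalization. The annotation release and the strand option are not given. Of 76 columns, 37 belonged to irradiated mice or could not be assigned and were not used. The other 39 were sham libraries and set the filter, and 10 of them (5 per diet, males, 530 d) made the comparison. Gene identifiers were matched to GENCODE vM39 coordinates for 56323 of 56941 genes (98.9%).

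A gene was tested when each of the 39 sham libraries held over 20 of its counts, which left 10995 of 56941 (19.3%). Counts were scaled with TMM and tested with edgeR 4.0.16 (quasi-likelihood, two-sided, limma 3.58.1, R 4.3.3) (p adjusted by Benjamini-Hochberg, threshold 0.05), and with DESeq2 1.42.0 at default settings. DESeq2's own filter left 10350 genes. The standard error of a log2 fold change is its size divided by the square root of F. Totals and RIN were compared by exact permutation of the library labels. With 12945124 to 19058680 counts per library, counting error is largest, relative to the level, for genes just over the filter of 20 counts. The code was tested on simulated data.

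Named genes were all genes past the threshold in edgeR, the genes past DESeq2 with the largest changes (up to 15 each way), the genes the study names for males, up to 4 members per list with the smallest unadjusted p under 0.05, and the most abundant gene of each cell list. There were 31 lists (18 of pathways and 13 of cell types), chosen with earlier results of these data known. Alternatives were M12 to M15 summed, DESeq2, other size factors, filters, libraries in the fit, RIN or atrial markers (mean log2 CPM) as covariate, a robust fit, and each library left out. The fit without M9 and M10 and the alternatives of the DESeq2 count were chosen after seeing the data. Promoter windows came from RefSeq on GRCm38.p6 and gene positions from GRCm39.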

Additional observations from a re-analysis of the deposited data

Results flagged for a closer look

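In the ND group, 11 of 103 sets of values held a library far from the other 4 by Dixon's gap test (gap over range above 0.71). Chance gives about 1 in 20 sets, and the WD group was not put through it because M12 to M15 were so alike. M8 was the far library for the summed macrophage markers (853.1 CPM, others 525.1 to 580.1), the calcium-binding protein gene Cabp1 (16.94, others 8.255 to 10.18), Clock (20.79, others 16.99 to 17.67), mt-Atp6 (170.6, others 103.1 to 118.5), Eng (557.9, others 407.8 to 449.7) and the myelin gene Cnp (21.61, others 14.05 to 15.83). M9 was far for Setbp1 (1.892, others 3.307 to 3.855), Shld1 (41.51, others 26.51 to 30.73) and Nppb (567.8, others 49.25 to 126.4). M10 was far for Col4a2 (356.4, others 246 to 274.8), and M6 for the skeletal troponin gene Tnni2 (1.065, others 2.636 to 3.198).

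For 4 named genes all WD libraries lay on 1 side of the ND mean at 530 d and all lay on the other side of it at 750 d. These were mt-Nd2 (log2 fold change 0.5178 at 530 d, -0.3032 at 750 d, unadjusted p of the diet by age interaction = 0.002984), the macrophage genes Lyz2 (0.4608 and -0.4367, unadjusted p = 0.005564) and Trem2 (0.507 and -0.4491, unadjusted p = 0.004553), and the p53 target Mdm2 (-0.1655 and 0.1475, unadjusted p = 0.0398). Other named genes, Pdgfb (-0.47 and 0.18, unadjusted p = 0.00474) and Tie1 (-0.33 and 0.35, unadjusted p = 0.0263) among them, had fold changes of opposite sign and an interaction p under 0.05, but not all their WD libraries lay on opposite sides. None passed after adjustment: edgeR's interaction test placed 0 genes past the threshold, with 373 at an unadjusted p under 0.05, and DESeq2's 0, with 432.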

How the results depend on the processing

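edgeR's count of 0 genes became 47 with DESeq2, 4 without a filter (Tspan18, Myh7b, S100a8 and Col5a3), 1 with atrial markers as covariate (Col5a3) and 2 without M9 and M10 (Sema4c and Col5a3), the last chosen after seeing the data. With each library left out it was 0 to 4. S100a8 and Sema4c were named after their values were seen. In the other edgeR alternatives, M12 to M15 summed and RIN as covariate among them, it was 0. DESeq2's count of 47 became 0 with M12 to M15 summed, 77 with RIN as covariate (44 of the 47 shared), 92 with atrial markers (36 shared), 0 with all sham males in the fit, 133 without M9 and M10 (30 shared), and 2 to 148 when each library was left out. The interaction count was 0 in each alternative run. The cause of these differences was not tested.

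Over 86 named genes and 24 alternatives, 36 of 2064 log2 fold changes, in 10 genes, had the other sign. Without M9 and M10, Acta1 was at 0.2778, Nppb at 0.06394, Myh6 at -0.08549 and Cnp at -0.06684. With M12 to M15 summed, in edgeR, DESeq2 and the fit of all sham males, Cidea was at 0.0173, 0.02426 and 0.01787, Myl4 at 0.3061, 0.3156 and 0.3047, and Myh6 at -0.1136, -0.1063 and -0.1138. Myl4 was also at 0.001474 with DESeq2, 0.001585 with its size factors and 0.005571 without a filter. With atrial markers, Myh6 was at -0.02153 and Cnp at -0.05638, and with RIN, Hbb-bs at -0.05615 and Cnp at -0.02164. With single libraries left out, the range was -0.18 to 0.02434 for Gsn, -0.1329 to 0.4992 for Cd74, -0.01351 to 0.8028 for Ighm, -0.3185 to 1.129 for Myl4, -0.05149 to 0.1055 for Myh6, -0.7278 to 1.16 for Hbb-bs and -0.1244 to 0.1736 for Cnp. The cause was not tested.

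No paired analysis was possible because the replicate numbers only count mice within a group and link no WD mouse to an ND mouse. Depth limits genes near the filter, such as Bmal1, which had too few counts to be tested.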

Other observations

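A fatty acid gene differed more between libraries of the same diet than between diets. The mitochondrial carrier Ucp3 had 80.7, 38.9, 48.0, 16.5 and 49.2 CPM on ND and 20.2, 63.7, 60.3, 63.8 and 62.7 CPM on WD. It was lowest in M9, next lowest in M11 and highest in M6.

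Of 16 immediate early genes tested, 1 was higher and 2 were lower at an unadjusted p under 0.05 (2.79% and 4.25% of all genes), with a median of 0.13. With M12 to M15 summed, 0 were higher and 1 was lower (1.55% and 1.48% of all genes), with a median of -0.04. Ier2 had 42.8, 73.0, 88.1, 52.6 and 52.0 CPM on ND and 47.4, 40.1, 39.9, 43.2 and 39.8 CPM on WD (log2 fold change -0.55, edgeR adjusted p = 0.430), and the groups overlapped, M6 being below M11 and M14. Egr1 was at 21.1 to 57.6 CPM on ND and 18.2 to 34.5 on WD (-0.54, edgeR adjusted p = 0.683). Ier3 was at 44.0 to 59.7 CPM on ND and 55.0 to 69.6 on WD (0.33, edgeR adjusted p = 0.430). The antiviral gene Rsad2 was at 9.77 to 13.1 CPM on ND and 6.15 to 9.94 on WD (-0.42, edgeR adjusted p = 0.482). The 36 interferon and class I MHC genes tested had a median of -0.05 (0.09 with M12 to M15 summed, -0.18 without M11). The glycerol channel Aqp7, chosen after its values were seen, was at 33.8 to 43.3 CPM on ND and 24.8 to 31.8 on WD, without overlap (-0.42, DESeq2 adjusted p = 0.0291).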
